A study of Nematostella vectensis with 33 samples.

Results

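In embryos of the starlet sea anemone Nematostella vectensis, 44 genes of the 22407 in the deposited table had lower transcript levels with either of 2 short hairpin RNAs (shRNAs) against STING than with a control shRNA against GFP, both without treatment and with the cyclic dinucleotide 2'3'-cGAMP. They were chosen by a rule on measured values. A gene needed a mean of at least 30 normalised counts over the 12 libraries, which 17112 genes had. In each treatment all 4 STING shRNA libraries had to lie below both GFP shRNA libraries, and the mean of log2(normalised count + 1) had to be lower with the STING shRNAs by at least 0.5. In a second embryo experiment, the NF-kB shRNAs had to differ from GFP by no more than 0.8 on the log2 scale. Differences between STING and GFP shRNA libraries, and between NF-kB and GFP shRNA libraries, are therefore described and were not tested. Genes are named by their placeholder symbols in the reference (prefix LOC) or, for those not matched there, by NCBI Gene number. The reference gives neither product names nor sequences, so no function can be given for any of the 44.

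STING is a receptor of the innate immune system that binds cyclic dinucleotides. In mammals the enzyme cGAS makes 2'3'-cGAMP upon sensing DNA in the cytosol, whereas c-di-AMP, c-di-GMP and 3'3'-cGAMP are best known as bacterial signalling molecules. In mammals, STING bound to its ligand activates kinases and with them transcription factors, NF-kB among them, and STAT proteins act downstream of the interferons that are then secreted. Sea anemones carry STING, NF-kB and STAT genes, which makes the animal a model for the early history of this pathway.

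The study sequenced poly(A) RNA in 33 libraries from 16 groups. In the STING experiment, embryos microinjected with the GFP shRNA, STING shRNA 1 or STING shRNA 2 were left untreated or given 2'3'-cGAMP at 100 µM for 4 h, with 2 libraries in each of these 6 groups. In the NF-kB and STAT experiment, all embryos received 2'3'-cGAMP at that dose and time, with 3 libraries of the GFP shRNA and 2 of every other shRNA, namely NF-kB 1 and 2 and STAT 1 and 2, and no untreated embryos. Whole polyps were left untreated or given 2'3'-cGAMP, 3'3'-cGAMP, c-di-AMP or c-di-GMP at 500 µM for 24 h, with 2 libraries per group. Every embryo library, the GFP control included, thus came from injected animals, and the labels give no strain, age or genotype. The shRNA targets were not matched to gene identifiers, and their depletion was not analysed here, and the labelled tissues could not be checked against markers.

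Some libraries stood apart from the rest. In the STING experiment, 21.6% of genes were listed at 0 in GFP shRNA untreated replicate 1 and 14.4% in GFP shRNA 2'3'-cGAMP replicate 4, against 3.99 to 11.3% in the other 10 libraries. Both are control libraries that the rule used, and their median correlation with the other libraries across genes was 0.849 and 0.882, against 0.897 to 0.96 elsewhere. The values of a library summed to 20.5 to 29.3 M (mega) normalised counts for the STING and 17.5 to 20.6 M for the other embryo libraries. In polyps they ran from 9.56 to 10.5 M, except for 22.3 and 22.4 M with 2'3'-cGAMP. In whole animals, fewer cells of a type and less RNA per cell cannot be told apart.

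LOC5506676 had the most normalised counts of the 44 genes, which are not scaled to transcript length. In untreated embryos it stood at 869 and 709 normalised counts in the GFP shRNA libraries, at 380 and 284 with STING shRNA 1 and at 117 and 220 with STING shRNA 2. With 2'3'-cGAMP it stood at 12361 and 11216 with the GFP shRNA, at 3102 and 5514 with STING shRNA 1 and at 2482 and 4181 with STING shRNA 2. The lowest GFP library was 1.86 times the highest STING shRNA library without treatment and 2.03 times with 2'3'-cGAMP. The means were 789 ± 113 (SD, n = 2) against 250.0 ± 111 (n = 4) without treatment, and 11789 ± 810 (n = 2) against 3820 ± 1330 (n = 4) with 2'3'-cGAMP. The differences of mean log2 values, STING minus GFP, were -1.77 and -1.69.

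Gene 116616001 showed the same arrangement with fewer normalised counts. Without treatment it stood at 47.3 and 75 normalised counts with the GFP shRNA, at 27.2 and 18.2 with STING shRNA 1 and at 11.3 and 24.9 with STING shRNA 2. With 2'3'-cGAMP it stood at 1630 and 1016 with the GFP shRNA, at 229 and 417 with STING shRNA 1 and at 275 and 357 with STING shRNA 2. The differences were -1.57 and -2.04 on the log2 scale. LOC5506676 and Gene 116616001 were the 2 of 44 genes whose lowest GFP library was at least 1.5 times the highest STING shRNA library in both treatments.

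LOC116612551 had the most negative mean difference of the 44, at -2.0. It stood at 134 and 79.0 normalised counts in untreated GFP shRNA embryos, at 67.5 and 46.7 with STING shRNA 1 and at 7.65 and 23.4 with STING shRNA 2. With 2'3'-cGAMP it stood at 124 and 83.8 with the GFP shRNA, at 4.91 and 18.8 with STING shRNA 1 and at 58.0 and 41.7 with STING shRNA 2. The hairpin with the lower values thus changed between treatments. Gene 116604413, with differences of -2.25 and -1.25, and LOC5513358, with -1.21 and -1.96, had means over the controls of 120 ± 60.3 and 132 ± 45.5 normalised counts (SD, n = 2) without treatment.

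**Figure D1:**
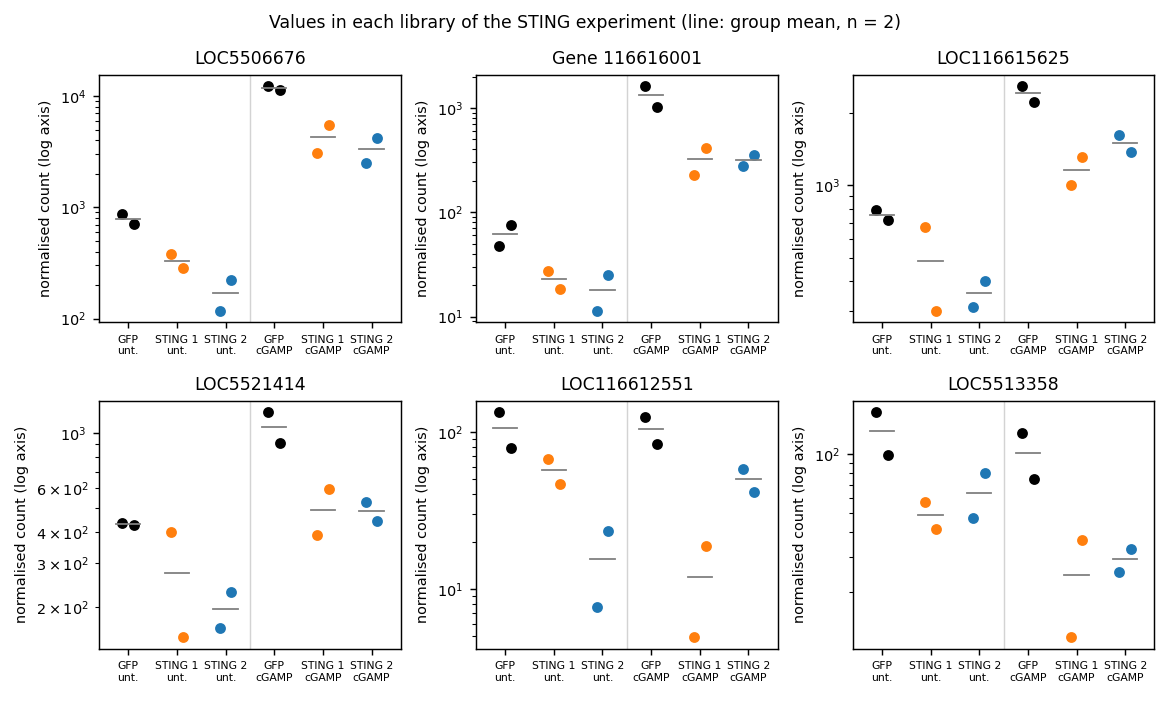
Normalised counts (log axis) in each library of the STING experiment for 6 of the 44 genes, with GFP shRNA libraries in black, STING shRNA 1 in orange and STING shRNA 2 in blue; grey lines are group means (n = 2), "unt." is untreated and "cGAMP" is 2'3'-cGAMP. By the rule every STING library lies below both GFP libraries of its treatment, and LOC5506676 and Gene 116616001 show gaps of at least 1.5 times in both treatments.

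The other genes were arranged less widely. In 29 of the 44 the lowest GFP library was under 1.1 times the highest STING shRNA library in at least 1 treatment, and in 21 it was under 1.2 times in both. LOC5521414 stood at 433 and 428 normalised counts in untreated GFP shRNA embryos against 399, 151, 165 and 229 with the STING shRNAs, the first of these being STING shRNA 1 replicate 1. LOC116615625 stood at 789 and 715 against 670, 301, 313 and 400 in the same libraries. In both genes 1 STING shRNA library was close to the controls and the other 3 were well below them. STING shRNA 1 replicate 1 was the highest untreated STING shRNA library for 33 of the 44 genes, against 39.6% of all 17112 genes. STING shRNA 1 replicate 1 with 2'3'-cGAMP was the lowest library for 30 of the 44, against 31.3% of all genes.

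Over the 44 genes, the difference between STING and GFP shRNAs had a median of -0.80 without treatment, from -2.25 to -0.51, and of -0.83 with 2'3'-cGAMP, from -2.14 to -0.51, while the median over all 17112 genes was 0.04 and 0.02. A difference of -1 or lower was found in both treatments for 7 genes and in at least 1 treatment for 17. The difference was more negative with 2'3'-cGAMP for 22 genes, and Pearson's r of the 2 differences was 0.68 across the 44 genes, whose members share libraries and are not replicates. The rule limited both differences, so r describes these genes only, and r over all genes was not computed. The 7 genes included LOC116612551, Gene 116616001, Gene 116604413, LOC5506676 and LOC5513358, with LOC116620835 at -1.30 and -1.24 and LOC116618323 at -1.01 and -1.03. Gene 116609883 (-1.29 and -0.88), Gene 116608979 (-1.30 and -0.71), LOC5509522 (-1.25 and -0.60), LOC5515966 (-1.13 and -0.60) and Gene 5496508 (-1.08 and -0.96) were past -1 without treatment. LOC5518184 (-0.88 and -1.16), Gene 116605520 (-0.93 and -1.19), Gene 116609858 (-0.89 and -1.06), LOC5521181 (-0.75 and -1.09) and LOC5521414 (-0.97 and -1.12) were past it with 2'3'-cGAMP. LOC116615625 (-0.91 and -0.88), LOC5512991 (-0.87 and -0.87) and Gene 5498515 (-0.82 and -0.87) completed the 20 genes with the most negative mean difference.

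Each condition of the rule had its own share of all genes. Without treatment 369 of 17112 genes met it in the lower direction (2.16%) and with 2'3'-cGAMP 1469 (8.58%), and 49 met both before the limit on the NF-kB difference. Of the 369 genes, 13.3% were also lower with 2'3'-cGAMP and 1.63% were higher, where 8.58% and 9.35% of all genes were. The same conditions in the opposite direction gave 119 genes in both treatments, and 106 with the NF-kB limit. The NF-kB limit removed 5 genes, namely LOC5504526, LOC5520665, Gene 5522067 and Gene 116609587 with NF-kB differences of -1.32, -1.17, -1.08 and -1.52, and Gene 116606186 with 0.98. Just inside the thresholds lay LOC5505051, at -0.51 without treatment, and LOC5496748, at -0.51 with 2'3'-cGAMP. Just outside lay LOC5503601, at -0.48 without treatment, and LOC5503030, at -0.48 with 2'3'-cGAMP. The gene with the lowest mean was LOC116618323 at 48.1 normalised counts, and the nearest below the minimum was LOC5521912 at 18.0. LOC116615625, with an NF-kB difference of -0.78, was nearest to that limit.

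The list depended on single libraries. GFP shRNA untreated replicate 1 was above replicate 2 for 37 of the 44 genes, against 50.1% of all genes, and GFP shRNA 2'3'-cGAMP replicate 4 was above replicate 5 for 36 of the 44, against 47.7%. Without these 2 controls, which had the most genes at 0, the median differences of the 44 genes were -0.60 and -0.68, and 34 and 32 of them reached -0.5, where values below 0 are fixed by the rule. The rule then gave 179 genes, of which 24 were among the 44. With 1 library left out, which changes both the libraries to be separated and the mean differences, it gave 38 to 741 genes. It gave 38 without STING shRNA 1 2'3'-cGAMP replicate 1, of which 35 were among the 44. It gave 741 without STING shRNA 1 untreated replicate 1, 557 without GFP shRNA untreated replicate 2, 117 without GFP shRNA 2'3'-cGAMP replicate 5, 101 without GFP shRNA untreated replicate 1 and 71 without STING shRNA 2 2'3'-cGAMP replicate 1.

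The 2 hairpins were compared with each other, a contrast that the rule did not use. Each hairpin was below the GFP control in the mean for all 44 genes in both treatments, which the rule fixes. The median difference from GFP was -0.64 for STING shRNA 1 and -0.97 for STING shRNA 2 without treatment, and -0.96 and -0.68 with 2'3'-cGAMP. Averaged over both treatments, limma called 0 of the 44 genes different between the hairpins at an adjusted p below 0.05, and 0 of 20879 tested genes (0%). Differences of opposite sign in the 2 treatments cancel in this average, so it could not find a change of hairpin order between treatments. An unadjusted p below 0.05 was found for 195 of all tested genes (0.934%) and for 1 of the 44, LOC5506676. This gene was lower with STING shRNA 2 by a log2 difference of -0.70 (95% interval -1.30 to -0.09). The 95% interval of the hairpin difference reached a median of 0.72 to either side over the 44 genes. Fewer genes had an unadjusted p below 0.05 than would be expected if no gene differed. The fit was thus conservative for this contrast, and the lack of calls does not show that the hairpins agree.

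**Figure D2:**
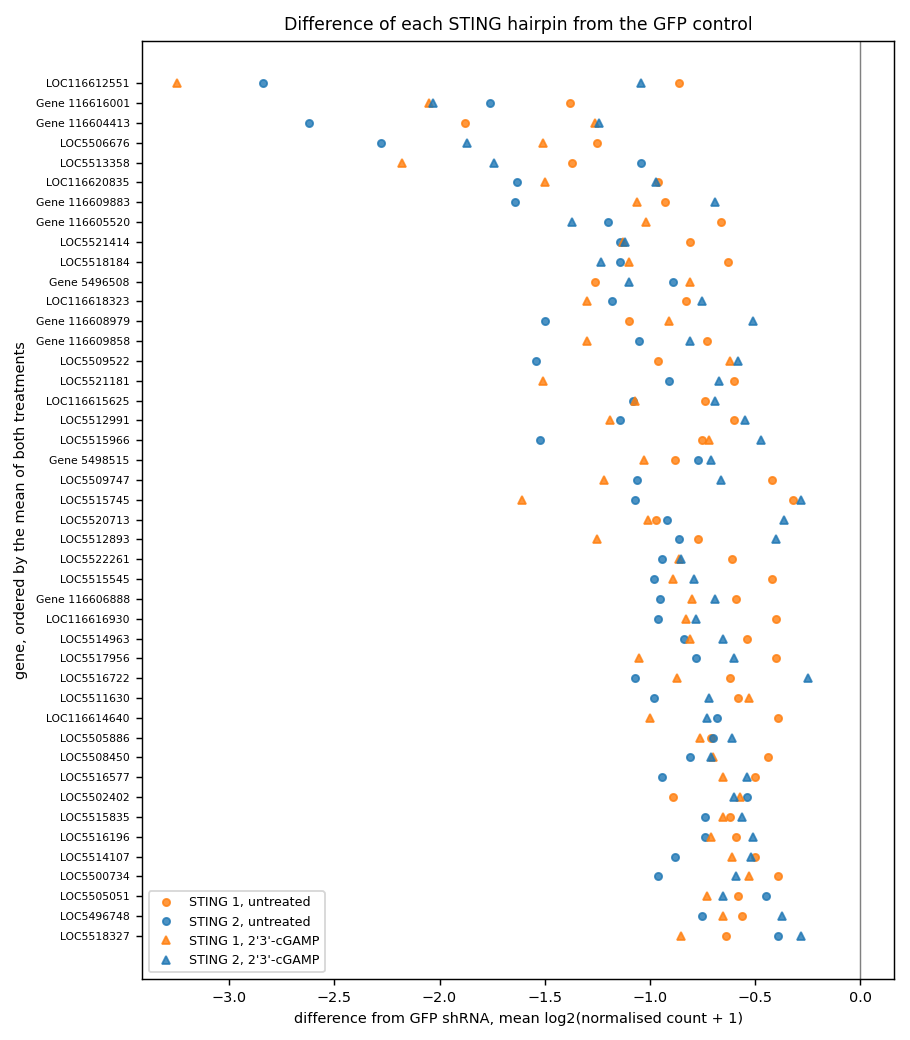
Difference of each STING hairpin from the GFP shRNA, in mean log2(normalised count + 1), for the 44 genes ordered by the mean of both treatments, with STING shRNA 1 in orange, STING shRNA 2 in blue, circles for untreated and triangles for 2'3'-cGAMP. All points lie below 0, from -3.25 to -0.25, and the order of the hairpins differs between genes and treatments.

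LOC5506676, Gene 116616001 and LOC116615625 rose with 2'3'-cGAMP in embryos with either kind of shRNA. With the GFP shRNA, limma called 3 of the 44 higher with 2'3'-cGAMP than without, against 4.52% of 20879 tested genes, and 0 lower, against 1.28%. An unadjusted p below 0.05 was found for 5 of the 44 and 3634 of all tested genes. Gene 116616001 rose by a log2 change of 4.41 (SE 0.566, adjusted p = 0.000809 by limma), LOC5506676 by 3.91 (SE 0.387, adjusted p = 0.000114) and LOC116615625 by 1.68 (SE 0.351, adjusted p = 0.0173), each in 2 libraries against 2 without overlap. The share of all genes without such overlap was not counted, so the lack of overlap adds no support to the calls. The call of LOC116615625 was lost without GFP shRNA untreated replicate 1 (adjusted p = 0.0689), 2'3'-cGAMP replicate 4 (0.108) or 2'3'-cGAMP replicate 5 (0.0541). It was also lost with equal library totals (0.0596), in a fit of the 2 groups alone (0.105) and without both controls with most genes at 0 (0.204), the last chosen after the data were seen.

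With the STING shRNAs, limma called 4 of the 44 higher with 2'3'-cGAMP, against 7.1% of tested genes, and 0 lower, against 3.78%. The counts with both kinds of shRNA are near the shares of all genes. With libraries scaled to equal totals, the median over all genes went from 0.04 to -0.27, and 3 of the 44 were called higher and 3 lower. At that scaling 14.2% of all tested genes were called, and 5.11% were called higher. Without STING shRNA 1 replicate 2, untreated or with 2'3'-cGAMP, 3 were called higher and 1 lower. An unadjusted p below 0.05 was found for 10 of the 44 and 4661 of all tested genes. The log2 changes were 3.98 for LOC5506676 (SE 0.274, adjusted p = 4.03e-06 by limma), 3.94 for Gene 116616001 (SE 0.4, adjusted p = 8.56e-05), 1.71 for LOC116615625 (SE 0.248, adjusted p = 0.00115) and 1.14 for LOC5521414 (SE 0.311, adjusted p = 0.0406). LOC5521414 lost its call when any 1 of 7 of the 8 libraries was left out, with adjusted p from 0.0645 to 0.161, and with equal library totals (0.133). With the GFP shRNA it had a log2 change of 1.29 (adjusted p = 0.142). LOC5506676 thus rose by about the same log2 amount with both kinds of shRNA from a lower starting level with the STING shRNAs.

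The difference between the 2 responses, STING minus GFP, is a description here, since the rule used both differences between shRNAs. It was 0.08 for LOC5506676 (95% interval -0.97 to 1.13), 0.04 for LOC116615625 (-0.92 to 0.99), -0.15 for LOC5521414 (-1.34 to 1.04) and -0.47 for Gene 116616001 (-2.01 to 1.06). Each interval spans changes of about 1 log2 unit or more to either side, so unequal responses of that size cannot be told from equal ones. Over the 44 genes the difference in response ran from -0.75 to 1.00, and for 39 it lay within 0.5 of 0. The rule required a lower level with the STING shRNAs in both treatments, which favours small values here. The share of all genes within 0.5 of 0 was not counted.

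The 3 GFP shRNA libraries of the NF-kB and STAT experiment came from embryos with the same shRNA, dose and time, and the rule used them only for the NF-kB limit. The tables were scaled separately, so levels were set side by side and not tested, and over the 17104 genes with a mean of at least 30 that both tables held, the median difference of the second experiment from the first was -0.75 on the log2 scale. LOC5506676 stood there at 10090, 11162 and 11038 normalised counts with the GFP shRNA, above all 4 STING shRNA libraries of the STING experiment, which reached 5514. Gene 116616001 stood at 935, 1095 and 1420, above the STING shRNA libraries, which reached 417. These 2 were the only genes of the 44 with all 3 further controls above all STING shRNA libraries, or 4.55%, against 2.37% of all genes. The rule chose the 44 for low values in these same STING shRNA libraries, so setting the 2 shares side by side is no test.

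For most of the 44 genes the second set of controls did not lie where the first did. All 3 libraries were below both GFP shRNA libraries of the STING experiment for 38 of the 44 genes (86.4%), against 57.9% of all genes, and the median difference was -1.35. The rule chose genes for which both of those GFP libraries were high, which favours a larger share than over all genes. For 15 genes (34.1%, against 56.7% of all genes) all 3 were even below the lowest STING shRNA library, and for the remaining 27 neither all 3 lay above nor all 3 lay below the STING shRNA libraries. LOC116612551 stood at 7.85, 12.1 and 11.8 in these controls, against 124 and 83.8 in the controls of the STING experiment. LOC5513358 stood at 21.3, 20.7 and 1.15, against 129 and 75.2. LOC116615625 stood at 1428, 1962 and 1458, which overlapped the STING shRNA libraries at 1005 to 1612. Experiment, scaling and the choice of genes by the rule cannot be told apart in this comparison.

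**Figure D3:**
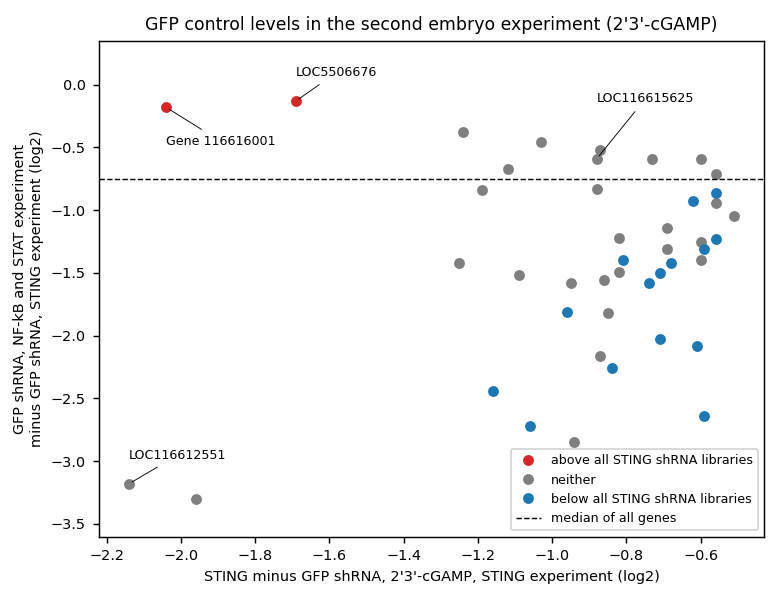
Mean log2 level of the GFP shRNA libraries with 2'3'-cGAMP in the NF-kB and STAT experiment minus that in the STING experiment (vertical axis), against the STING minus GFP difference with 2'3'-cGAMP (horizontal axis), for the 44 genes; the dashed line is the median of all genes, at -0.75, and the tables were scaled separately. LOC5506676 and Gene 116616001, in red, had all further controls above all STING shRNA libraries, while 15 genes in blue had them below.

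STAT shRNAs were not part of the rule, although their GFP control was. Limma called 0 of the 44 genes different between STAT and GFP shRNAs with 2'3'-cGAMP, against 1 of 20058 tested genes (0.00499%). An unadjusted p below 0.05 was found for 1080 of all tested genes and for 2 of the 44, LOC116615625 at a log2 difference of -0.47 and LOC5514963 at -0.80. LOC5506676 stood at 7499 and 10793 normalised counts with STAT shRNA 1 and at 10348 and 11442 with STAT shRNA 2, overlapping its controls, with a log2 difference of -0.12 (95% interval -0.48 to 0.24). Gene 116616001 stood at 974, 1188, 1236 and 1177 in the STAT libraries, also overlapping its controls, with a difference of 0.01 (-0.33 to 0.34). LOC116615625 stood at 1115, 1066, 1168 and 1262, below all 3 of its controls, although it did not pass the adjusted threshold (adjusted p = 0.877 by limma). The median over the 44 genes was 0.03, and the lowest value was that of LOC116618323, at -1.65 (95% interval -3.49 to 0.19).

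The NF-kB differences were limited by the rule and are given as description. They had a median of -0.19, with 29 of the 44 genes below 0, 8 below -0.5 and 3 above 0.5, where the median over all genes was -0.01. LOC116615625 stood at 1015 and 622 normalised counts with NF-kB shRNA 1 and at 1095 and 1098 with NF-kB shRNA 2, below its 3 controls at 1428, 1962 and 1458. LOC5521414, with a difference of -0.53, stood at 376, 446, 424 and 621 against controls at 727, 834 and 475, and the groups overlapped. LOC5506676 stood at 9112 and 6238 with NF-kB shRNA 1 and at 9992 and 11509 with NF-kB shRNA 2, so that the second hairpin overlapped the controls, with a difference of -0.26 in the mean of both. Gene 116616001 stood at 692 and 697 with NF-kB shRNA 1, below its controls, and at 1022 and 1080 with NF-kB shRNA 2, among them.

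**Figure D4:**
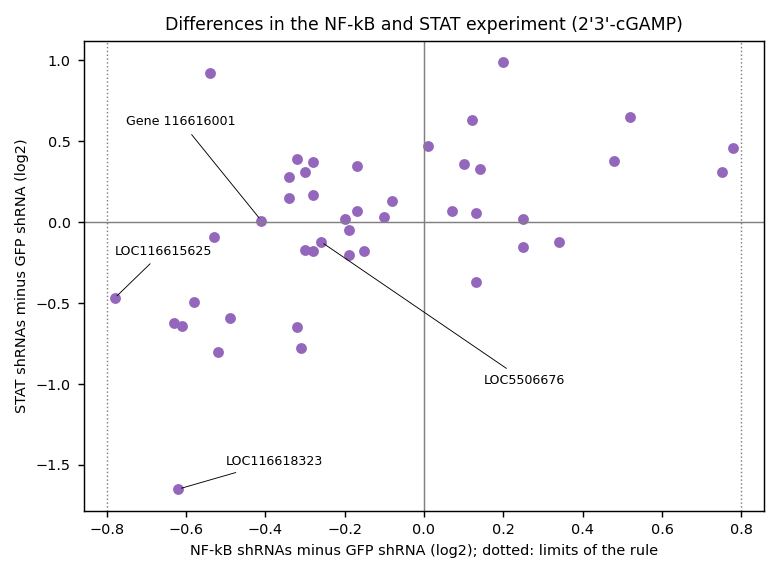
Log2 differences of the NF-kB shRNAs (horizontal axis) and the STAT shRNAs (vertical axis) from the GFP shRNA with 2'3'-cGAMP, which share their 3 control libraries, 1 point per gene; dotted lines are the limits of -0.8 and 0.8 set by the rule. LOC116615625 lies nearest the lower limit at -0.78, and LOC116618323 has the lowest STAT difference at -1.65.

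In polyps, which the rule did not use, 2'3'-cGAMP raised all 4 genes called in embryos, with log2 changes of 2.57 to 8.56. Of all 18511 genes tested in polyps, 28.5% were called higher with 2'3'-cGAMP. How many of all the genes called higher in embryos were also called higher in polyps was not counted. Whether 4 of 4 is unusual for such genes was therefore not tested. LOC5506676 stood at 196 and 223 normalised counts in untreated polyps and at 60535 and 56646 with 2'3'-cGAMP, a log2 change of 8.12 (SE 0.153, adjusted p = 2.01e-10 by limma). Gene 116616001 stood at 5.10 and 3.54 untreated and at 2196 and 1798 with 2'3'-cGAMP, a log2 change of 8.56 (SE 0.352, adjusted p = 1.51e-08). LOC116615625 rose from 49.3 and 66.4 to 462 and 408, a log2 change of 2.90 (SE 0.483, adjusted p = 0.000469). LOC5521414 rose from 26.3 and 38.1 to 172 and 218, a log2 change of 2.57 (SE 0.409, adjusted p = 0.000344). None of these groups overlapped, but the share of all genes without overlap was not counted, so this adds no support to the calls.

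Of the 44 genes, 40 passed the filter of at least 10 normalised counts in at least 2 polyp libraries. Gene 116604413, LOC5513358, Gene 116609858 and Gene 5498515 did not, with highest values of 8.73, 12.7, 6.51 and 4.25. With 2'3'-cGAMP, limma called 11 of the 44 higher, against 28.5% of 18511 tested genes, and 8 lower, against 30% of them. Neither count is above its share of all genes. Without untreated replicate 1, 8 were called higher and 4 lower. With libraries scaled to equal totals, the median over all genes went from -0.10 to -1.23, and 6 of the 44 were called higher and 22 lower. At that scaling 71.9% of all tested genes were called, and 11.3% were called higher.

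Beside the genes that also rose in embryos, LOC5512991 was higher with 2'3'-cGAMP, at 1125 and 1265 normalised counts against 64.5 and 71.7 untreated, a log2 change of 4.11 (SE 0.201, adjusted p = 5.34e-08 by limma). LOC5500734 stood at 272 and 199 against 25.5 and 34.5, a log2 change of 2.93 (SE 0.485, adjusted p = 0.000452). Gene 5496508 was listed at 0 in both untreated libraries and stood at 14.3 and 15.2 with 2'3'-cGAMP, so it passed the filter through the treated libraries alone. The 11 genes called higher include it, so its call is no separate support. In embryos neither LOC5512991 nor Gene 5496508 was called for 2'3'-cGAMP, and LOC5500734 had log2 changes of 0.76 with the GFP shRNA (adjusted p = 0.367 by limma) and 0.88 with the STING shRNAs (adjusted p = 0.0757). Dose, duration, stage and library kit all differed between polyps and embryos, so the sizes were not compared.

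Other genes of the list fell with 2'3'-cGAMP in polyps. LOC5502402 stood at 22.9 and 30.1 normalised counts untreated and at 4.77 and 0 with 2'3'-cGAMP, a log2 change of -3.51 (SE 0.736, adjusted p = 0.00213 by limma). LOC5515545 fell from 65.4 and 69.0 to 11.9 and 5.69, a log2 change of -2.87 (SE 0.368, adjusted p = 7.6e-05). LOC5515745 fell from 24.6 and 41.6 to 2.38 and 5.69 (log2 change -2.80), LOC116620835 from 56.0 and 62.0 to 4.77 and 28.4 (-2.20) and LOC5496748 from 27.2 and 25.7 to 7.15 and 5.69 (-1.89). The groups did not overlap for any of these 5 genes, which were picked as the called genes with the largest falls. Such a choice favours groups without overlap, and how many of all genes showed no overlap was not counted. The call of LOC116620835 was lost without untreated replicate 2 (adjusted p = 0.0559 by limma) and in a fit of the 2 groups alone (0.0717). The call of LOC5496748 was lost without untreated replicate 1 (0.0545) and with the replicate number as a block (0.0597). The polyp libraries with 2'3'-cGAMP also had the most genes at 0, at 11.3% and 9.81% against 3.81 to 5.77% in the others, and the part of this in the low values was not tested.

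At matched dose and duration, the remaining compounds moved few of the 44 genes in comparisons that share the untreated libraries. With c-di-AMP, limma called 2 higher, against 0.773% of tested genes. LOC5506676 stood at 619 and 522 normalised counts, a log2 change of 1.44 from untreated polyps (SE 0.153, adjusted p = 0.00206 by limma), and Gene 116616001 at 34.5 and 29.0, a log2 change of 2.63 (SE 0.352, adjusted p = 0.00764). The call of Gene 116616001 was lost without c-di-AMP replicate 1 (adjusted p = 0.116), without untreated replicate 2 (0.0566) and in a fit of the 2 groups alone (0.101). With 3'3'-cGAMP, 0 of the 44 were called, against 0.054% of tested genes, and an unadjusted p below 0.05 was found for 3 of the 44 and 800 of all genes. LOC5506676 stood there at 437 and 339, above both untreated libraries, with a log2 change of 0.88 (95% interval 0.54 to 1.22, adjusted p = 0.182 by limma). With c-di-GMP, 0 of the 44 were called, as were 0 of all tested genes (0%), and an unadjusted p below 0.05 was found for 3 of the 44 and 1877 of all genes. LOC5506676 stood at 187 and 161 with c-di-GMP, below both untreated libraries, with a log2 change of -0.27 (95% interval -0.61 to 0.07).

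The 4 compounds gave 6 pairs, which were compared directly. LOC5506676 was higher with 2'3'-cGAMP than with c-di-AMP, by 6.68 on the log2 scale (SE 0.153, adjusted p = 1.18e-09 by limma), than with 3'3'-cGAMP by 7.25 (adjusted p = 7.16e-10) and than with c-di-GMP by 8.39 (adjusted p = 1.44e-10). 2'3'-cGAMP and 3'3'-cGAMP hold the same bases and differ in a phosphodiester linkage between their nucleotides. LOC5506676 was also higher with c-di-AMP than with c-di-GMP, by 1.71 (adjusted p = 0.000593), and with 3'3'-cGAMP than with c-di-GMP, by 1.15 (adjusted p = 0.0328). Between c-di-AMP and 3'3'-cGAMP the difference was 0.56 (95% interval 0.22 to 0.90, adjusted p = 0.539) and did not pass the threshold. The order of its levels was thus 2'3'-cGAMP, c-di-AMP, 3'3'-cGAMP and c-di-GMP, with the middle neighbours not separated. The call of 3'3'-cGAMP against c-di-GMP was lost with equal library totals, in a fit of those groups alone and without either c-di-GMP library.

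Gene 116616001 had the same order of means, at 1997 ± 281 normalised counts (SD, n = 2) with 2'3'-cGAMP, 31.7 ± 3.88 with c-di-AMP, 14.9 ± 5.24 with 3'3'-cGAMP, 11.2 ± 0.971 with c-di-GMP and 4.32 ± 1.1 untreated. It was higher with 2'3'-cGAMP than with c-di-AMP, 3'3'-cGAMP and c-di-GMP, by log2 differences of 5.93, 7.01 and 7.36 (adjusted p = 2.78e-07, 7.22e-08 and 4.82e-08 by limma). Among the other 3 compounds its differences were 1.08, 1.43 and 0.35, with 95% intervals of 0.29 to 1.86, 0.64 to 2.21 and -0.43 to 1.13, and none passed the adjusted threshold. Over the 44 genes, 17 were called for 2'3'-cGAMP against c-di-AMP (56% of all tested genes), 20 for 2'3'-cGAMP against 3'3'-cGAMP (58.1%) and 14 for 2'3'-cGAMP against c-di-GMP (56%). The first count was 10 without c-di-AMP replicate 2, and the second was 13 without 2'3'-cGAMP replicate 1 and 11 without 3'3'-cGAMP replicate 2. Between c-di-AMP and 3'3'-cGAMP 0 were called (0.0054% of all tested genes), with an unadjusted p below 0.05 for 3 of the 44 and 1078 of all genes. For c-di-AMP against c-di-GMP 1 was called (0.708% of all), and for 3'3'-cGAMP against c-di-GMP 1 (0.0756% of all), which in both cases was LOC5506676.

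**Figure D5:**
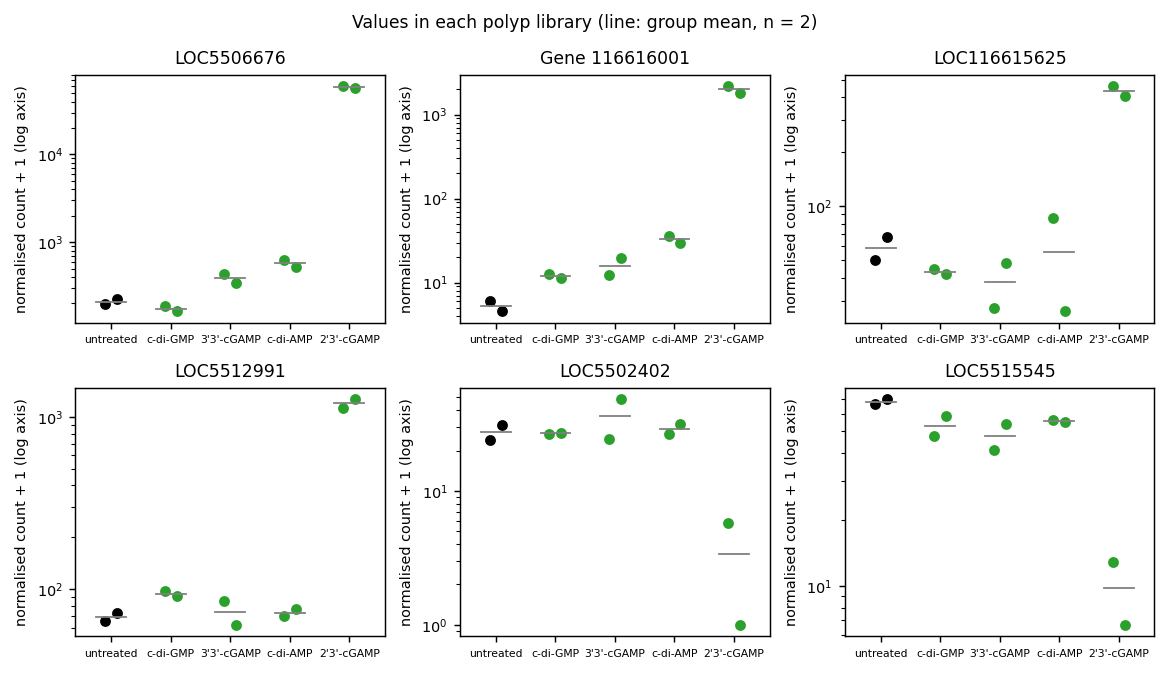
Normalised counts plus 1 (log axis) in each polyp library for 6 of the 44 genes, with untreated polyps in black, polyps given 1 of 4 compounds in green and group means (n = 2) as grey lines. LOC5506676 and Gene 116616001 are highest with 2'3'-cGAMP, followed by c-di-AMP, and the 3'3'-cGAMP and c-di-GMP libraries of Gene 116616001 overlap, whereas LOC5502402 and LOC5515545 are lowest with 2'3'-cGAMP.

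Of the 44 genes, 35 were matched in the reference (79.5%, against 80.8% of the 17112 genes), and all 35 were protein coding there. The closest pair in the order of genes along a chromosome was LOC116618323 and LOC116612551, 54 places apart, so no matched members were direct neighbours.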

How the data were processed

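Poly(A) RNA was measured in 33 libraries of whole polyps and microinjected embryos. Per the labels, the authors deposited normalised counts per gene, read here as signal values, in 3 tables keyed by NCBI Gene number. The submitters' processing notes name FastQC 0.11.9, kallisto 0.46.1 and DESeq2, with no roles or order, and the transcriptome build is not given in the sources used here, so no positions are printed. The deposited scaling was kept, and depth in reads is unknown.

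The rule was applied to log2(normalised count + 1). Its members, the gene lists and the comparisons were chosen with earlier results of these data known. The reference table, of assembly jaNemVect1.1, holds no product names, so that 0 genes could be assigned to the pathway and cell-type lists.

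Comparisons that the rule did not use were fitted on all genes with at least 10 normalised counts in at least 2 libraries of a table, with limma 3.58.1 in R 4.3.3 (group means, all groups of a table in 1 fit, trended variances). P-values were two-sided, Benjamini-Hochberg adjusted over all tested genes of a comparison, with calls made at adjusted p below 0.05. They measure only the spread between these samples, which may be technical, and compared libraries include those the rule used. Pairs of compounds were added after the data were seen. The fit was also run on simulated data, with independent normal values and the same spread for a gene in all libraries. These hold no outlying libraries, so the run does not cover the controls with most genes at 0.

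Genes named are the 20 members with the most negative mean difference, up to 5 called members per direction and comparison with the largest change, and the genes nearest each threshold. LOC5514963 was named after its values were seen. The alternatives were the rule's thresholds, pseudocount, filter, scaling (TMM or equal totals), the compared groups alone, the replicate block and each library left out.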

Additional observations from a re-analysis of the deposited data

Results flagged for a closer look

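For the 20 genes with the most negative mean difference, 80 sets of 4 libraries (both hairpins pooled, per treatment or target) were screened for a library far from the other 3, by its gap to the nearest library as a share of the whole range. For 4 normal values from the same population, chance flags about 1 in 20 sets, or 4 of 80, and 5 were found. These sets hold counts that were not logged and pool both hairpins, and the rule limits the STING and NF-kB values. That rate is therefore only a rough guide.

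Gene 116608979 stood at 152 normalised counts in STING shRNA 1 untreated replicate 1 against 55.4 to 70.0 in the other untreated STING shRNA libraries, a share of 0.849. With 2'3'-cGAMP it stood at 63.0 in STING shRNA 1 replicate 2 against 107 to 110 in the others, a share of 0.942. LOC5515966 stood at 21.8 in STING shRNA 2 untreated replicate 2 against 59.2 to 62.3 in the others, a share of 0.924. Gene 116604413 stood at 37.0 in NF-kB shRNA 1 replicate 1 against 19.6 to 22.1 in the other NF-kB shRNA libraries, a share of 0.852. LOC116618323 stood at 45.9 in NF-kB shRNA 2 replicate 1 against 10.9 to 16.9 in the others, a share of 0.83.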

How the results depend on the processing

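The rule gave 44 genes. A difference of at least 0.3 or 1 in place of 0.5 gave 82 or 7, equal library totals 69, STING shRNA 1 alone 99 and STING shRNA 2 alone 871, the last 2 chosen after seeing the data, as was leaving out both controls with most genes at 0 (179). Leaving out 1 library gave 38 to 741: 38 without STING shRNA 1 2'3'-cGAMP replicate 1, 741 without STING shRNA 1 untreated replicate 1, 557 without GFP shRNA untreated replicate 2, 117 without GFP shRNA 2'3'-cGAMP replicate 5, 101 without GFP shRNA untreated replicate 1 and 71 without STING shRNA 2 2'3'-cGAMP replicate 1. Of 680 recomputed differences of named members between shRNAs, 18 moved by more than 1 SD, and their direction is largely set by the rule. Of 598 recomputed changes, limited to the up to 5 called members per direction and comparison with the largest change, 58 were no longer called. Calls with smaller changes were not among them. LOC5509522 is 1 such case, with polyp means of 251 untreated and 421 with 2'3'-cGAMP, but a log2 change of -0.39 with equal totals.

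Members called with 2'3'-cGAMP in polyps went from 19 to 11 with a mean of at least 50, and to 12 to 17 with 1 library left out (12 without untreated replicate 1). With c-di-AMP they went from 2 to 1 in the 2 groups alone, and to 1 to 2 with 1 library left out (1 without c-di-AMP replicate 1 or untreated replicate 2). For 2'3'-cGAMP against c-di-AMP they went from 17 to 10 with a mean of at least 50, 31 with equal totals and 10 to 15 with 1 library left out (10 without c-di-AMP replicate 2). For 2'3'-cGAMP against 3'3'-cGAMP they went from 20 to 12 with a mean of at least 50, 31 with equal totals, 13 in the 2 groups alone and 11 to 16 with 1 library left out (13 without 2'3'-cGAMP replicate 1, 11 without 3'3'-cGAMP replicate 2). For 2'3'-cGAMP against c-di-GMP they went from 14 to 28 with equal totals. Equal totals gave calls for 71.2%, 71.6% and 71.7% of all tested genes against c-di-AMP, 3'3'-cGAMP and c-di-GMP. A mean of at least 50 gave calls for 71% of all tested genes against untreated polyps, 68.7% against c-di-AMP and 70.8% against 3'3'-cGAMP. The 2 groups alone gave 47% for 2'3'-cGAMP against 3'3'-cGAMP. For 3'3'-cGAMP against c-di-GMP the 1 call became 0 with equal totals, in the 2 groups alone and without either c-di-GMP replicate (0 to 1 with 1 library left out). Apart from fewer genes or samples, the cause was not tested. With 1 library left in a group, it is assumed to vary like the other groups.

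Pairing by replicate number was looked at among the libraries numbered 1. Correlations of their deviations from group means ran from 0.02 to 0.28 in the STING experiment (2 of 10 pairs over 0.1). They ran from -0.01 to 0.09 with NF-kB, STAT and their GFP shRNAs and from -0.10 to 0.07 in polyps. GFP shRNA 2'3'-cGAMP replicates 4 and 5 were not among these libraries, so pairing in the STING experiment was not excluded. With the replicate number as a block, members called for 2'3'-cGAMP were 3 with the STING shRNAs and 15 in polyps, 1 with c-di-AMP, and 15, 14 and 17 for 2'3'-cGAMP against c-di-AMP, 3'3'-cGAMP and c-di-GMP. They were 0 for 3'3'-cGAMP against c-di-GMP, 1 for c-di-AMP against c-di-GMP, and 0 between the hairpins, for STAT, c-di-GMP or 3'3'-cGAMP against their controls, and for c-di-AMP against 3'3'-cGAMP. The GFP shRNA comparison shares no replicate number between treatments, so no paired fit could be made there.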
